A study of Mus musculus with 5 samples.

Results

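The genes described here are 9 erythroid transcription factors and cofactors of MEL cells: Gata1, Klf1, Tal1, Nfe2, Zfpm1, Lmo2, Ldb1, Gfi1b and Spi1. They were taken by symbol from a list of 18349 genes with an mRNA level, and all 9 were found there once each. MEL is a mouse erythroleukemia line, erythroid precursors arrested before terminal maturation. The labels give no genotype, treatment or time that differs between samples and mark the values as day 0. The RNA contacts of PABPC1, the main cytoplasmic protein that coats the poly(A) tail, were mapped by CLIP-seq in 3 samples labelled as biological replicates. Cells were irradiated 3 times with ultraviolet light at 400 mJ/cm2, and RNase was applied for 10 min before precipitation of PABPC1. Polyadenylated RNA of the same line was sequenced in 2 samples, which the labels number but do not call separate cultures. Each kind of sample was represented by pooled values, so no value below carries a replicate error and no comparison has a test.

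In red cell precursors these factors work as a linked set. GATA1 binds GATA motifs together with FOG1, the product of Zfpm1. TAL1 binds nearby E-boxes, and LMO2 and LDB1 bridge it to GATA1 and bring distant enhancers to promoters. KLF1 binds the CACCC box of the adult beta-globin promoter, NFE2 binds the globin control region with a small MAF partner, and GFI1B recruits the demethylase LSD1 to repress genes. PU.1, the product of Spi1, drives myeloid and lymphoid fates, antagonises GATA1 and is the factor activated by viral insertion in Friend erythroleukemia.

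All 9 mRNAs were abundant, over a 10.6-fold range. Levels are in RPKM, reads scaled by gene length and library size, so they can be compared between genes. Klf1 was highest at 428, followed by Gata1 at 210.6. Ldb1 at 180.1 and Zfpm1 at 177.9 came next, then Spi1 at 105.2. Gfi1b at 87.6, Lmo2 at 86.0, Nfe2 at 69.2 and Tal1 at 40.3 closed the order. Among 10211 protein-coding genes with RPKM of at least 1, whose median was 19.6, Klf1 exceeded 98.7% and Tal1 exceeded 71.5%. An RPKM of 1 stood for 35.3 reads per kb of gene, so the levels rested on 1419 reads per kb for Tal1 and up to 15095 for Klf1. Taking each gene as 1 kb, exact Poisson 95% intervals overlapped for Ldb1 (175.7 to 184.6) and Zfpm1 (173.6 to 182.4), and for Gfi1b (84.6 to 90.8) and Lmo2 (82.9 to 89.1). The other neighbours in the order did not overlap on counting error, and the spread between the pair of mRNA-seq samples is unknown. In bulk RNA, fewer cells with a transcript and less of it per cell cannot be told apart.

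**Figure D1:**
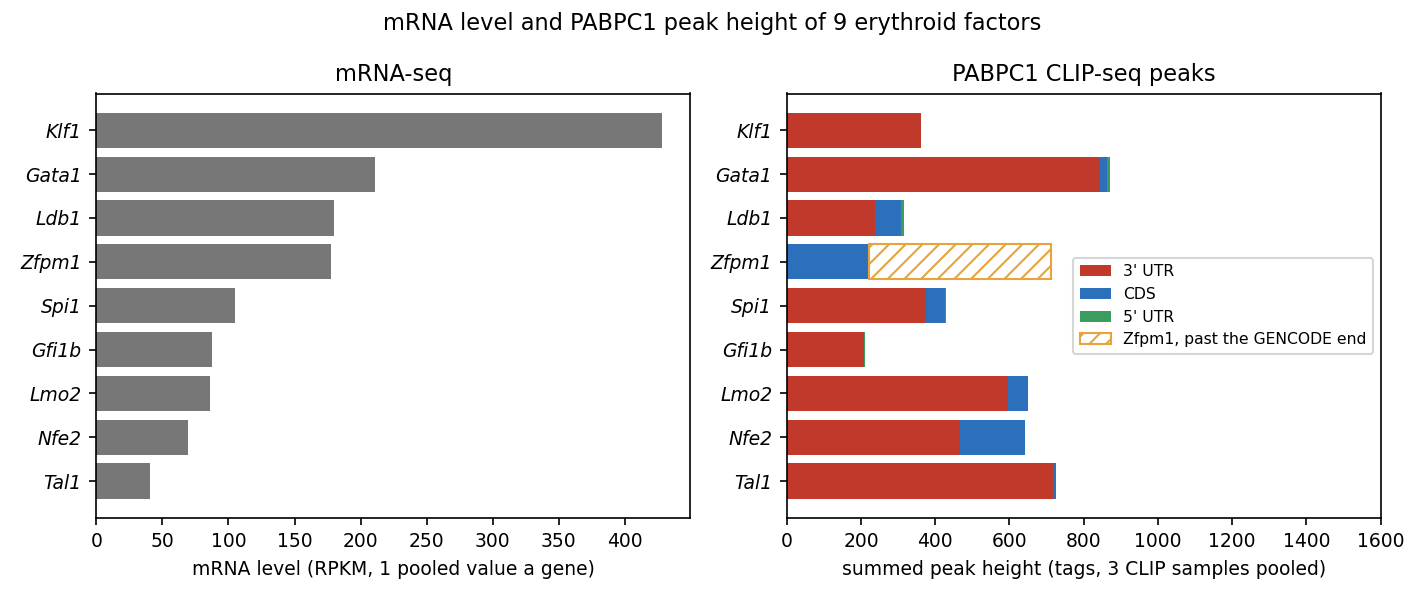
Left, mRNA level of each gene in RPKM (horizontal axis, 1 pooled value a gene); right, height of its exonic PABPC1 peaks summed by transcript region, in tags pooled over 3 CLIP-seq samples. Klf1 had the highest mRNA level at 428 RPKM but a summed height of 363 tags, while Tal1 had the lowest level at 40.3 RPKM and a summed height of 726 tags; the hatched bar adds 492 tags that lay past the GENCODE end of Zfpm1.

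Each of the 9 mRNAs held a PABPC1 peak in an exon, and a peak was the rule: 96.6% of protein-coding genes with RPKM of at least 1 held one, and 99.8% of the 2774 genes in the RPKM range of the 9. Peaks were assigned by their midpoint to a gene on the same strand, and their height is the authors' score for each peak, read here as tags. The 9 genes held 62 exonic peaks and 1 intronic peak, at 4 tags in Tal1. Of the exonic peaks 42 lay in coding sequence (CDS), 16 in 3' UTRs and 4 in 5' UTRs. The 3' UTR share was 25.8% (exact binomial 95% interval 15.5 to 38.5, counting error only), against 53.5% of all 77678 exonic peaks. Without Zfpm1 it was 37.2%. The share rested on low CDS peaks, whose median height was 8 tags against 193 tags for the 3' UTR peaks of these genes. Among peaks of at least 74 tags it was 11 of 12, or 91.7%, beside 81.5% of all such peaks. By height, peaks placed in 3' UTRs held 3808 of 4431 tags, 85.9%. The median protein-coding gene with a peak had 90.1% of its summed height there (quartiles 73.7 to 100), so the share is ordinary. Each peak was placed whole by its midpoint, also where it spanned the stop codon, so part of this height covers CDS. The tallest peak lay in the 3' UTR in 8 of 9 genes, beside 90.2% of protein-coding genes with a peak, so the count is near the background.

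Gata1 and Klf1, the 2 most abundant, had simple patterns dominated by 1 peak over the stop codon and the 3' UTR. Gata1 (chrX:7959260-7978071, minus strand) held the tallest peak of the set, 845 tags, which began upstream of the stop codon and covered the whole 497 nt of 3' UTR. Its other peaks had 12 and 6 tags in CDS and 9 tags in the 5' UTR. The tallest peak, placed whole in the 3' UTR, thus held 96.9% of its 872 tags. Klf1 (chr8:84901928-84905291, plus strand) held a single peak of 363 tags, over the stop codon, the 352 nt of 3' UTR and 20 nt past the annotated end. No other peak was listed on Klf1, although it was the most abundant mRNA of the 9.

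Tal1 and Nfe2 differed from them in where the tags lay. Tal1 (chr4:115056426-115071755, plus strand) has the longest 3' UTR of the set, 3030 nt, and was the one gene whose tags were split over several tall peaks. Its 3' UTR held 6 peaks, of 257, 215, 110, 92, 23 and 19 tags, and its CDS 1 peak of 10 tags. The peak of 257 tags began 1102 nt after the stop codon, the peak of 23 tags began 79 nt after it, and the other 4 began 2185 nt or more after it. Nfe2 (chr15:103248212-103258403, minus strand) had the tallest CDS peak of the set, 120 tags, at chr15:103248940-103249058. Its 3' UTR peak had 468 tags and spanned the stop codon, and the 6 CDS peaks together held 175 of its 643 tags.

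The genes of the bridging proteins, Lmo2 and Ldb1, had their tallest peaks toward the end of the main transcript. Lmo2 (chr2:103957986-103981878, plus strand) had a peak of 532 tags, which began 464 nt after the stop codon and ran to the end of the 784 nt 3' UTR, a peak of 63 tags before it, and CDS peaks of 10, 10 and 34 tags. Ldb1 (chr19:46031570-46045214, minus strand) had a peak of 228 tags in the 3' UTR, 5 CDS peaks of 7 to 30 tags and a 5' UTR peak of 7 tags. A further peak of 9 tags was placed in a 3' UTR through another annotated transcript of the gene.

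Zfpm1, the GATA1 cofactor, was the exception to the 3' UTR pattern, and its count depended on where the gene is taken to end. In GENCODE M21 it lies at chr8:122282141-122337251 on the plus strand with a 3' UTR of 60 nt. Inside that span it held 19 peaks, all in CDS, of 3 to 64 tags and 221 tags in all. A peak of 374 tags (chr8:122337088-122337479) spanned the stop codon and the annotated 3' UTR and ran 228 nt past the end, which put its midpoint outside the gene. A second of 118 tags followed at chr8:122337636-122337887. RefSeq on GRCm38.p6 ends the gene at 122337862, which takes in both midpoints, and with them the summed height was 713 tags in place of 221. All of these positions also lie in an intron of Gm20388, a readthrough gene on the same strand that has no entry in the RPKM list.

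The repressor gene Gfi1b and the myeloid factor gene Spi1 had their tallest peaks at the 3' end. Gfi1b (chr2:28609450-28621982, minus strand) had 2 peaks in the 3' UTR, 171 tags at the end and 37 tags before it, a 5' UTR peak of 4 tags and no CDS peak. Its summed height, 212 tags, was the lowest of the set. Spi1 (chr2:91082390-91115756, plus strand) had a peak of 376 tags over the stop codon and the whole 3' UTR of 362 nt, 6 CDS peaks of 3 to 17 tags and a 5' UTR peak of 5 tags.

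**Figure D2:**
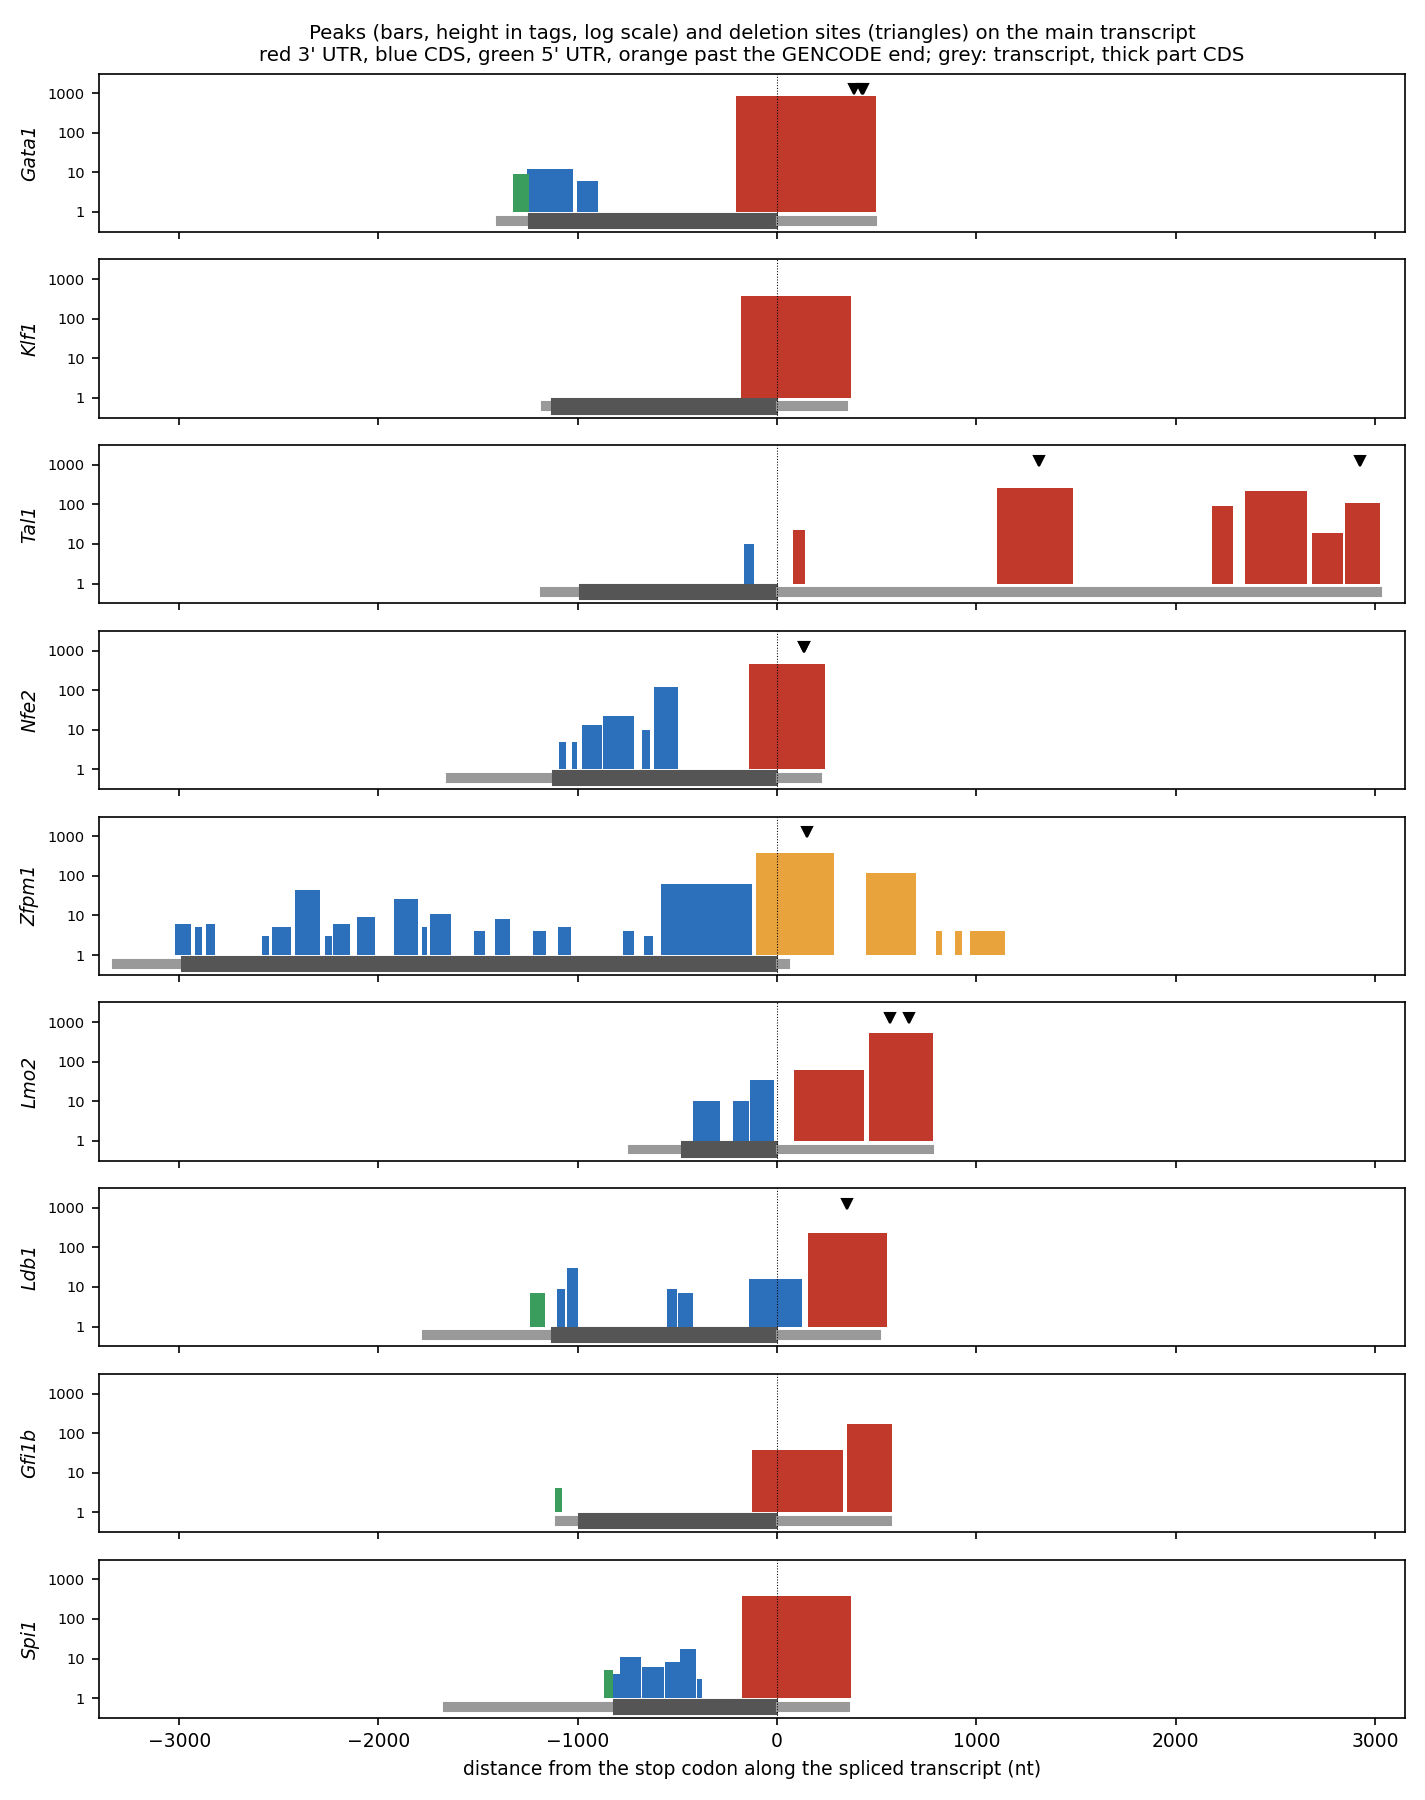
Peaks (bars, height in tags on a log scale) and deletion sites (triangles) along the main transcript of each gene, in nt from the stop codon; an edge that falls in an intron is drawn from the peak's width, and the Tal1 intronic peak and 1 Ldb1 peak off the main transcript are not drawn. The tallest bar of each gene lies over or after the stop codon, and Zfpm1 shows the peaks of 374 and 118 tags past the GENCODE end, followed by 3 peaks of 4 tags each.

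Deletion sites place a PABPC1 contact more closely than a peak does, because reverse transcriptase tends to skip the base that was linked to the protein. Of the 9 genes, 5 held a deletion site in an exon (Gata1, Tal1, Nfe2, Lmo2 and Ldb1), against 37.0% of all protein-coding genes with RPKM of at least 1 and 65.2% of those in the same RPKM range. The count is therefore not read as particular to the set. The 5 genes held 10 sites with 168 deletions, in 8 runs of nearby bases that may share a contact, all in 3' UTRs and all inside a peak. Of all exonic deletion sites 87.3% lay in a 3' UTR, and of all deletion sites 85.1% lay inside a peak. These counts include 2 adjoining Nfe2 sites deleted in all 10 of their tags. Whether the genome of this line carries those bases was not tested, so they may not mark a contact. The windows below run 5' to 3' in the sense of the mRNA, from the GENCODE transcripts on mm10, with each deleted base in capitals.
Gata1 chrX:7959312-7959341 minus strand: cttaaagatttTgtaaaAtaaaaccacctg
Gata1 chrX:7959356-7959385 minus strand: gagccactggccttTacagcccaaccatct
Tal1 chr4:115070027-115070056 plus strand: tttgtagtatggacAaataccccattgttt
Tal1 chr4:115071635-115071664 plus strand: cgggcgtgtgactcTttattgaaaaacaaa
Nfe2 chr15:103248289-103248318 minus strand: gggagtatttggtgAGgtttgcctggaggc
Lmo2 chr2:103981649-103981678 plus strand: caaccagacaaataTttatagcgatgttga
Lmo2 chr2:103981740-103981769 plus strand: caaatgtaaatcttAaaaaaaaaaggtcaa
Ldb1 chr19:46032743-46032772 minus strand: tggatcctggggttTatacctacagccctt

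The site with the most deletions was in Lmo2, although its share of tags was below those of 1 Tal1 site and both Nfe2 sites. At position 103981663, a T beside other T and A bases, 78 of 333 tags carried the deletion, 23.4% (Wilson 95% interval 19.2 to 28.3), at 176 nt before the end. The second Lmo2 site, 85 nt before the end, had 13 of 144 tags, 9.03% (5.35 to 14.8), and lay in a run of A. A deletion inside a run of 1 base has no unique position, which holds for both Lmo2 sites and several others.

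Gata1 had the opposite combination, many tags and few deletions. The site at 64 nt from the transcript end fell on a hexamer AATAAA and was deleted in 9 of 709 tags, 1.27% (0.669 to 2.39). The site at 70 nt was deleted in 10 of 632 tags, 1.58% (0.862 to 2.89). The Gata1 site at 111 nt showed deletion in 9 of 83 tags, 10.8% (5.81 to 19.3). The median exonic deletion site was deleted in 10.8% of its tags, so the interval of each site on or beside AATAAA lay below that value, and the interval of the third included it.

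Tal1 had a site in its peak of 257 tags, deleted in 11 of 32 tags, 34.4% (20.4 to 51.7), and 1 near the end, deleted in 6 of 43 tags, 14.0% (6.56 to 27.3). Ldb1 had 12 of 60 tags, 20.0% (11.8 to 31.8). In Nfe2 the adjoining bases 103248303 and 103248304 were each deleted in 10 of 10 tags, 100% (72.2 to 100), inside a peak of 468 tags. Whether the genome of this line carries these bases was not tested, and all counts of genes and sites given here include them. Past the GENCODE end of Zfpm1, 89 nt beyond it, position 122337340 was deleted in 6 of 33 tags, 18.2% (8.61 to 34.4), and its sequence was not analysed here. Tags are not independent molecules, and the intervals cover counting error only.

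**Figure D3:**
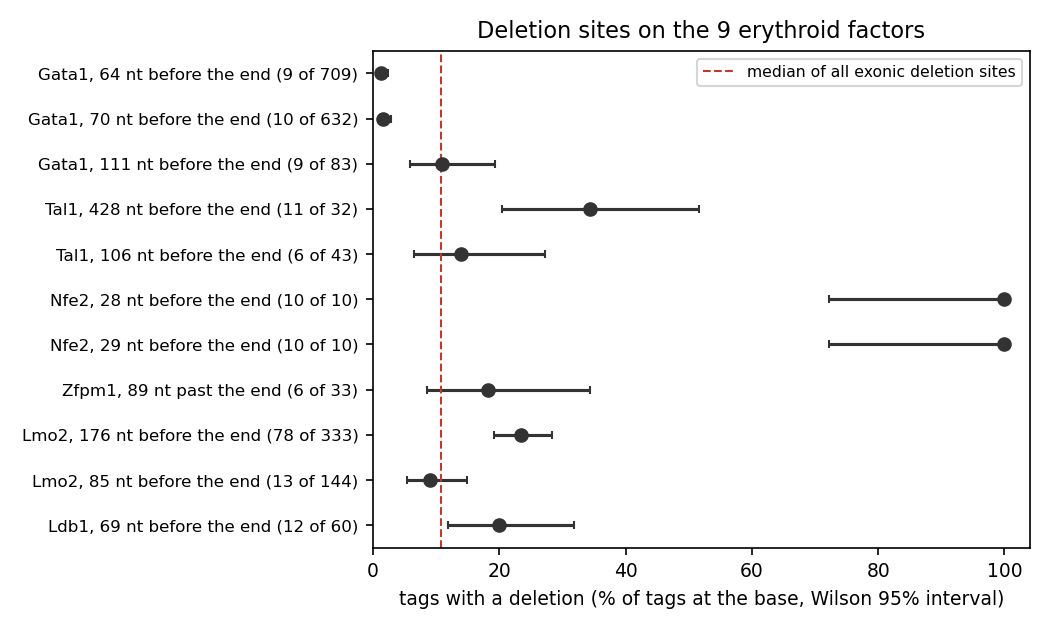
Share of tags with a deletion (horizontal axis, percent) at each deletion site of the 9 genes, with Wilson 95% intervals; labels give the distance to the nearest annotated end downstream and the tags. The 2 Gata1 sites at 64 and 70 nt lie below the dashed median of all exonic sites, 10.8%, and the 2 Nfe2 sites lie at 100%.

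A-rich hexamers were searched around each site. With 20 nt taken on either side, on the sense strand, AATAAA was near the Gata1 sites at 64 and 70 nt, AAAAAA was over 1 Lmo2 site, and ATATAA was near none. That is 3 of 10 sites with any of the 3, beside 48.6% of all 10029 exonic deletion sites (30.9% with AATAAA, 13.0% with ATATAA, 11.7% with AAAAAA). The deleted base was T at 5 sites, A at 4 and G at 1, beside 93.0% A or T over all exonic sites. Of the 10 sites, 6 lay within 100 nt of an annotated end, beside 46.8% of all 3' UTR sites. The upstream Tal1 site lay farthest away, 428 nt before the end of a shorter annotated transcript, with no poly(A) signal within 50 nt.

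In each of the 9 main transcripts the signal near the end, or a variant of it, lay in a peak. Peaks covered 86.2% or more of the 3' UTR of each main transcript except that of Tal1. The Ldb1 gene is annotated to 46031570, past the end of its main transcript, and coverage there was not measured. A hexamer in those 3' UTRs therefore had little room to fall outside a peak. A poly(A) signal, AATAAA or ATTAAA, lay in the last 50 nt of the main transcript of 6 genes, beside 79.1% of 10087 protein-coding transcripts. All 6 signals lay inside a peak, beside 75.9% of the 7980 genes with one. The signals are shown in capitals, near the annotated 3' ends under the peaks. For Zfpm1 this is the GENCODE end, which its peaks ran past. Whether these signals are used was not tested.
Gata1 chrX:7959270-7959299 minus strand: ggtatttggttaAATAAAtgtcagtgtcaa
Tal1 chr4:115071724-115071753 plus strand: ggaagatttctaAATAAAagttttacaaag
Zfpm1 chr8:122337216-122337245 plus strand: cccttgacacttAATAAAgacattcggtgt
Lmo2 chr2:103981842-103981871 plus strand: ttctgaagacttAATAAAaatgacaagctg
Gfi1b chr2:28609459-28609488 minus strand: gatgtaaatgtaAATAAAggtgggtttatt
Ldb1 chr19:46032594-46032617 minus strand: ttaaaaatgtaaATTAAAaaaaaa

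The signal began 20 to 28 nt before the end in Gata1, Tal1, Zfpm1, Lmo2 and Gfi1b. In Ldb1 it began 12 nt before the end of the main transcript, which closes with an encoded run of A. Klf1, Nfe2 and Spi1 had neither signal in that window. Each had a hexamer that differs from AATAAA at a single base, shown in capitals, and each lay inside the gene's tallest peak. Such a hexamer, between 50 and 10 nt from the end, was present in 62.8% of the 2107 transcripts without a signal, so its presence is no mark of these 3 genes. The share of such hexamers inside a peak over all genes is not given here.
Klf1 chr8:84905258-84905287 plus strand: tgttgtcgttacTATAAAaatttcccatat
Nfe2 chr15:103248220-103248248 minus strand: caagctttggttCATAAAgagctgtgtgg
Spi1 chr2:91115718-91115747 plus strand: tcactaaagacaAGTAAAattattgacagc

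Peaks covered nearly all of most of these 3' UTRs, and Tal1 was the one where position within the UTR could be read. On the main transcript, coverage was 100% in Gata1, Klf1, Nfe2, Spi1 and, with its peak past the end, Zfpm1. It was 86.2% to 96.7% in Lmo2, Ldb1 and Gfi1b. In Tal1 it was 39.8%. Over all expressed genes with a peak in the 3' UTR, 31.8% of 3' UTR bases lay in one. Both A runs of at least 6 bases in the Tal1 3' UTR lay in peaks, 12 bases in the peak of 215 tags and 7 bases in that of 110 tags, as did its AATAAA and ATATAA. Over all genes 55.6% of AAAAAA starts and 70.7% of AATAAA starts lay in peaks. A made up 29.0% of Tal1 bases inside peaks and 22.1% outside, beside 28.2% and 25.5% over all genes. In Lmo2 it made up 31.5% inside and 13.0% of the 108 bases outside. Ldb1 had 21.3% inside and 17.2% of 29 bases outside, and Gfi1b 21.4% inside and 21.1% of 19 bases outside.

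The order of the 9 genes by peak height differed from that by mRNA level. On the scale log2((summed height + 1)/(RPKM + 1)), which is a ratio of different units and is read against other genes, the median of the 9 was 2.02, beside 2.84 over 9868 protein-coding genes with a peak and 2.28 over those in the RPKM range of the set. Of the 9, 3 lay above 2.84: Tal1 at 4.14, Nfe2 at 3.20 and Lmo2 at 2.90. Gata1 stood at 2.04, Spi1 at 2.02, Gfi1b at 1.26, Ldb1 at 0.80, Zfpm1 at 0.31 and Klf1 at -0.24. Klf1 thus had a lower ratio than all but 2.53% of the genes, and Tal1 a higher one than 82.2% of them. With the peaks up to the RefSeq end counted, Zfpm1 stood at 2.00.

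Genes of like abundance give a closer view. Among the 102 protein-coding genes within 1.25-fold of the RPKM of Klf1, the median summed height was 1047 tags, and the 363 tags of Klf1 exceeded 8.82% of them. Gata1, with 872 tags, exceeded 62.3% of its 273 like genes, whose median was 672. Tal1, with 726 tags, exceeded 89.0% of 1193 like genes, whose median was 285. Nfe2 (643 tags) and Lmo2 (649) exceeded 73.9% and 71.3% of theirs, Spi1 (430) 45.0%, Ldb1 (315) 21.2%, Gfi1b (212) 21.0% and Zfpm1 (221) 10.6%. The place of Zfpm1 depended on where the gene is taken to end. With the peaks up to the RefSeq end it held 713 tags, beside a median of 652.5 tags for its like genes. Those like genes were counted to their GENCODE ends only, so these values are not like for like.

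**Figure D4:**
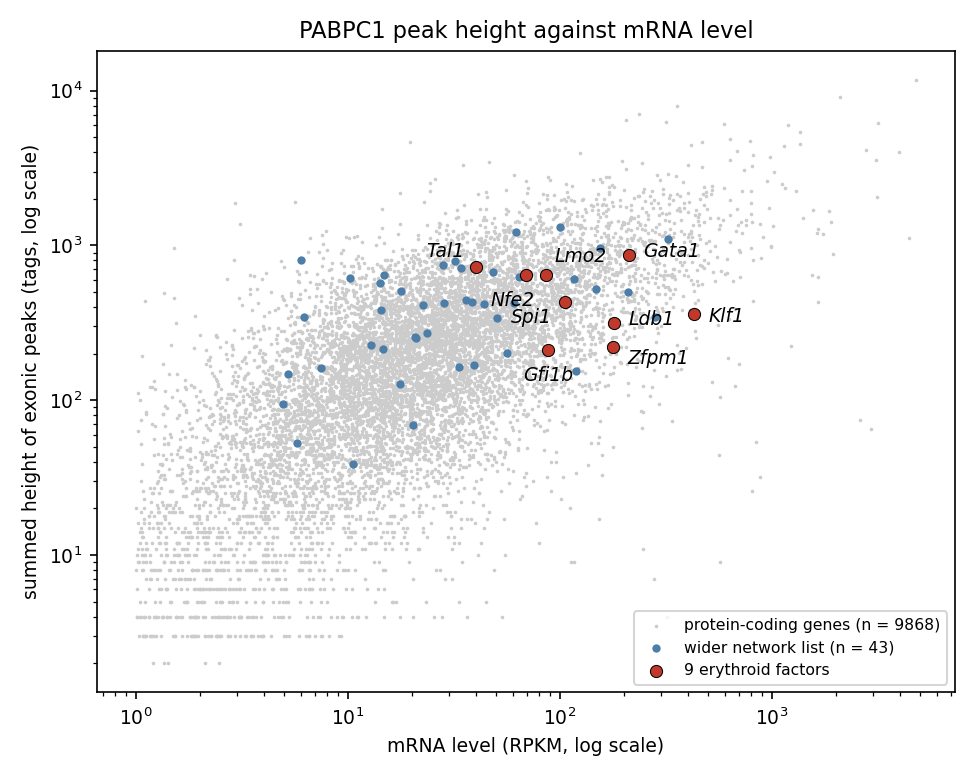
Summed height of exonic PABPC1 peaks in tags against mRNA level in RPKM, both on log scales, for 9868 protein-coding genes (grey), 43 genes of the wider network (blue) and the 9 factors (red). Klf1 and Ldb1 lie low for their level, at 363 and 315 tags, and Tal1 lies high at 726 tags; Zfpm1 is drawn at 221 tags, its value to the GENCODE end, and would stand at 713 tags with the peaks up to the RefSeq end.

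Summed height is not divided by transcript length. Klf1, with the lowest ratio, has 1530 nt of exon and Tal1, with the highest, 4285 nt, beside a median of 3268 nt over genes with a peak. Ldb1 (4311 nt) was low and Lmo2 (1893 nt) was above the all-gene median ratio. Zfpm1 (3390 nt) was low at 0.31 to its GENCODE end and stood at 2.00 with the peaks up to the RefSeq end. Whether length accounts for the order was not tested. Per kb of exon the ratio of Tal1 was 2.05, that of Nfe2 2.01 and that of Lmo2 1.98, against a median of 1.19 over all genes, while Klf1 stood at -0.85, Ldb1 at -1.29 and Zfpm1 at -1.43. On that scale the median of the 9 was 1.00, at percentile 44.2, in place of percentile 29.0 without length. Klf1, Ldb1 and Zfpm1 were the lowest 3 of the set on both scales, with Zfpm1 taken to its GENCODE end.

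The wider network was a list of 50 partners, cofactors and related factors. Of these, 48 had an RPKM, 43 had an RPKM of at least 1, and all 43 held an exonic peak, beside 96.6% of all protein-coding genes at that level. The tallest peak lay in the 3' UTR in each of the 43, beside 90.2% of genes with a peak. Deletion sites lay in 27 of the 43, 62.8%, beside 37.0% of all protein-coding genes with RPKM of at least 1. With only sites of at least 10 deletions counted it was 22, a setting without a share over all genes here. The list had a median of 28.4 RPKM and 4232 nt of exon, beside 19.6 RPKM over those genes and 3268 nt over genes with a peak. No share over genes of like level and length is given, so the count is not read as particular to the list. The median ratio was 3.57, and 28 of 43 genes lay above 2.84. Per kb of exon the median was 1.30 against 1.19. The E-protein genes Tcf4 at 6.85 and Tcf12 at 5.78, whose products pair with TAL1, and Runx1 at 5.58, a factor of blood stem cells, had the largest ratios. Their mRNA levels were 6.03, 10.2 and 6.23 RPKM, and they have 13366, 6790 and 7452 nt of exon. Myb, a factor of proliferating progenitors, stood lowest at 0.29 with 343 tags at 280.3 RPKM, then Lyl1, a close relative of Tal1, at 0.38 with 155 tags at 118.9 RPKM, and the nucleosome remodeller Chd4 at 1.24 with 497 tags at 210.0 RPKM.

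Deletions in that list were most numerous in E2f4, a cell cycle factor of erythroid precursors, with 266 at 4 sites and 321.6 RPKM. Rcor1, whose product is a corepressor partner of LSD1, followed with 185 at 8 sites. Next came the lymphoid and erythroid factor Ikzf1 with 110 at 5, Cbfb, the partner of RUNX1, with 103 at 3, and Mta2 of the NuRD complex with 89 at 2. Mta2 (154.6 RPKM) and Mbd3 (147.2 RPKM), also of NuRD, were among the 5 most abundant. Myb and Lyl1 carried 74 deletions at 5 sites and 58 at 3, so genes low for their level could hold deletion sites, as Klf1 did not.

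Markers of the labelled line were present in part. Of 9 erythroid markers 8 had an RPKM and 6 reached 1, with the erythropoietin receptor gene Epor at 224.8, the transferrin receptor gene Tfrc at 103.3 and the heme synthesis gene Alas2 at 79.0, while Slc4a1 (0.12) and Kit (0.23) were near 0 and Ahsp was not listed. Beside the level of Spi1, of 7 macrophage and granulocyte markers 5 were listed and Cd68 (9.93) alone reached 1. Among 5 lymphoid markers 3 were listed, and Ptprc (11.8) alone reached 1. Megakaryocyte markers were higher, Pf4 at 215.6 and Itga2b at 103.4, summing to 323.1 RPKM over 4 markers. Of 7 fibroblast markers 3 were listed and Thy1 (65.3) alone reached 1. The part of other cells in the levels above was not tested. A gene on the opposite strand overlaps Lmo2 (4931422A03Rik) and Ldb1 (Pprc1), and no source used here gives the strand setting of the mRNA counts.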

How the data were processed

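3 kinds of pooled file were used, and the members and lists were chosen with earlier results of these data known. The RPKM were made by the authors from 2 mRNA-seq samples, 1 value a gene. The deposited peak list gives a whole-number score a peak, taken as signal height in tags, and the deposited deletion list gives counts of tags with a deletion at a base, beside a number taken from its values as the tags at that base. All 3 CLIP-seq samples are merged in both lists, which hold 90337 peaks and 11907 sites. The submitters' processing notes list HTSeq 0.6.0, TopHat2 2.0.12, Novoalign 3.02.02 and cutadapt 1.4.2, with mm10, and no roles. The peak caller and thresholds are not given in the sources used here. Depth per sample is unknown. The RPKM step of 4946 genes gave whole reads within 0.01 for 100% of 3560 genes under 200 reads and implied 35251228 reads in all.

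Genes were matched to GENCODE M21 basic transcripts by stable identifier (18059 of 18349). Regions were ranked 3' UTR, 5' UTR, CDS, non-coding exon, intron. The main transcript was the longest of those that the APPRIS tags mark as principal. Distances run along spliced 3' UTRs to the nearest annotated end downstream. Placing was tested on simulated single positions in genes with 1 transcript (1000 of 1000 positions recovered). That does not test the ranking of regions between transcripts, the placing of wide peaks or overlapping genes. The 9 members were all named. Of the wider list, the rule named the 3 largest and 3 smallest ratios, the 5 most abundant, the 5 with most deletions and any gene with no peak. Python 3.11.15, numpy 2.4.6 and scipy 1.17.1 were used.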

Additional observations from a re-analysis of the deposited data

How the results depend on the processing

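No paired analysis was possible because the deposited values are pooled over replicates, and for the same reason no replicate could be left out. A ratio counted as moved when its distance from the median of all genes changed by more than 1.5-fold, and the cause of each move was not tested unless the setting shows it. The share of exonic peaks of the 9 genes in 3' UTRs was 43.2% for peaks of at least 9 tags (all genes 61.0%) and 91.7% for at least 74 tags, which removes low CDS peaks. The median ratio of the 9 was 1.83 with the tallest peak alone (all genes 1.97) and 1.00 per kb of exon, and that of the wider list was 1.30 per kb of exon. Side of the all-gene median changed for Gata1 with the tallest peak (2.00 against 1.97) and for Lmo2 with a pseudocount of 0.1 (2.91 against 2.93). Of 46 alternatives for single genes, 34 stayed, 10 moved and 2 changed side. The counts of members with a peak (8 or 9) or a deletion site (5 or 6) stayed within 1.5-fold, as did those of sites beside a hexamer (2 to 4) or within 100 nt of an end (4 to 6). No setting left out both Nfe2 sites that were deleted in all their tags. The Zfpm1 settings were chosen after seeing the data. Depth limits the deletion shares, since 4 of the 10 sites had under 50 tags.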
